A study of Mus musculus with 9 samples.

Results

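The genes described are 10 members of the insulin-like growth factor (IGF) family, taken by symbol from a table of 54532 genes measured in injured mouse muscle. They are the ligands Igf1 and Igf2, the receptors Igf1r and Igf2r, the binding proteins Igfbp3, Igfbp4, Igfbp5, Igfbp6 and Igfbp7, and the RNA-binding protein Igf2bp2. Each symbol matched 1 gene, and all 10 were among the 14233 genes with enough signal to be tested. The members were chosen by family, with no threshold, but with FPKM values and fold changes between these groups in view. The lower level of Igf2bp2 in old muscle was known by then, so the values below are descriptions and the adjusted p-values are not independent support. Igf2bp2 reached 0.5 FPKM in all 3 young libraries and in only 1 library of each old group, so it passed the filter on low values mainly through the group in which it is high.

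IGF ligands are secreted peptides that drive growth and survival of muscle cells. They signal through the tyrosine kinase receptor encoded by Igf1r, which acts through IRS adaptors and the PI3K, AKT and mTOR route on protein synthesis. The receptor encoded by Igf2r, also known as the mannose 6-phosphate receptor, carries Igf2 to lysosomes, and the secreted binding proteins hold the ligands in the matrix and the circulation. In injured mouse muscle, macrophages and fibro-adipogenic progenitors, the mesenchymal cells between the fibres, are known sources of Igf1.

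RNA came from tibialis anterior, a hind limb muscle, collected after injury. The groups were old P311-/- mice, old wild-type mice of 24 months and young wild-type mice of 4 to 6 months, with 3 libraries each. P311 is the protein of the gene Nrep, and P311-/- mice lack both copies. The age of the old P311-/- mice in months, their strain, the allele, how the muscle was injured and how long before were not stated in the labels. Since these do not say which libraries are separate animals, p-values here reflect library-to-library spread, which may be technical. Nrep stood at 14.8, 6.37 and 9.72 FPKM in the old P311-/- libraries, against 72.4, 71.4 and 83.1 FPKM in old wild type and 86.3, 72.6 and 63.9 FPKM in young wild type. Its log2 fold change against old wild type was -2.94 (SE 0.26, limma adjusted p = 0.0036).

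FPKM are reads per kilobase of gene, relative to a library size that the authors had scaled. Whole reads recovered from them numbered 14222204 to 31910890 per library, and reads per gene are given for the members with few of them. All 11 markers of mature muscle fibres had reads, with a summed level of 48027 to 67739 FPKM. Among them Tnnc2 was low in every library (0.280 to 1.23 FPKM), and Myh7 fell to 0.0721 FPKM in old wild type. Old P311-/- replicate 1 stood apart from replicates 2 and 3. Without it 1875 genes differed between old P311-/- and old wild type, against 10 with it, so calls in old P311-/- muscle are also given without it. This alternative was chosen after seeing the data and leaves only replicates 2 and 3 in that group. In whole tissue, fewer cells of a type and less RNA per cell cannot be told apart.

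Regulatory sequences are shown for the members whose levels set old and young muscle apart most, and for the ligand and receptor with known microRNA sites. The promoter windows hold 250 bases before and 50 after the RefSeq start on GRCm38.p6, from RefSeq, and all 10 members matched. Capitals mark matches to TATAAA, the letters of the TATA box, and to CCGCCC, those of a GC box, on either strand. These motifs do not overlap in these windows.
Igf2bp2 promoter (chr16:22163250-22163549, minus strand): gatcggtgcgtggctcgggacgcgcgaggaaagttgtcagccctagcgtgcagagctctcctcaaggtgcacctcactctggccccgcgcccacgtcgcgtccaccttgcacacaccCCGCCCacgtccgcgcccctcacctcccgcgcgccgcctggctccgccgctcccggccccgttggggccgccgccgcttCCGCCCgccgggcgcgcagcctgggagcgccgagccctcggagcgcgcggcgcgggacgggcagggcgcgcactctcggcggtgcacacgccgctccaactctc
Igfbp4 promoter (chr11:99040994-99041293, plus strand): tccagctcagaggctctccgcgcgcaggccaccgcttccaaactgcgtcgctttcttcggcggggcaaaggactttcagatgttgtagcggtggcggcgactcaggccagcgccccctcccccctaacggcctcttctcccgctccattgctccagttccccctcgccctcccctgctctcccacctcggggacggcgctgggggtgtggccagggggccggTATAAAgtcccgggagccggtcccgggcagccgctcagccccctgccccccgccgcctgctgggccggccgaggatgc
Igfbp6 promoter (chr15:102143936-102144235, plus strand): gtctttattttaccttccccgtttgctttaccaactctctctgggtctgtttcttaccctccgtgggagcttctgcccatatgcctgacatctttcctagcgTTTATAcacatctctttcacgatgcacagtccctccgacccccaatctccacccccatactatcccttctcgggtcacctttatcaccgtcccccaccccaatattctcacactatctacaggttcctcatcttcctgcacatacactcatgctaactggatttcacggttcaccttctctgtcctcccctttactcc
The Igf2bp2 window had 76.7% G and C and 47 CpG pairs, more than 98.6% of the 32851 windows in the table, with 2 CCGCCC matches and no TATAAA. The Igfbp4 window had 27 CpG pairs and a TATAAA that starts 28 bases before the start site. The Igfbp6 window had 8 CpG pairs and a single TATAAA match, which lies on the opposite strand and away from the RefSeq start. That window ends at 102144235, before the deposited gene start at 102144362, so the 2 starts differ. Over all windows 13.6% held TATAAA and 35.7% held CCGCCC on either strand. The Igf1r window was also CpG-rich (48 pairs), while those of Igf1 and Igfbp5 had 6 and 10. Like that of Igfbp6, the Igf1r window ends before the deposited gene start.

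Igf2bp2 and Igf1r are known targets of the let-7 family in mouse, and Igf1 of miR-206, a microRNA of skeletal muscle. The mature microRNAs are from RefSeq, with the seed (bases 2 to 8) in capitals. The sites are stretches of 30 bases of the GENCODE M21 transcripts with the longest 3' UTR, with the match to the seed in capitals.
mmu-let-7g-5p: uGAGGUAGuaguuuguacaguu
Igf2bp2 site (chr16:22059473-22059502, minus strand): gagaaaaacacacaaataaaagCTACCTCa
Igf1r site (chr7:68229103-68229132, plus strand): ggcttgtttttcaaacatttatCTACCTCa
mmu-miR-206-3p: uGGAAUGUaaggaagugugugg
Igf1 site (chr10:87930867-87930896, plus strand): ccccaatgaaatatacaagtaaACATTCCa
The sense-strand match to the let-7 seed, CTACCTC, occurred once in the Igf2bp2 3' UTR and at 2 places in that of Igf1r. It occurred in 12.1% and 38.4% of genes whose 3' UTR was within 20% of the length of theirs. The match to the miR-206 seed, ACATTCC, occurred once in Igf1 and in 31.8% of genes of like 3' UTR length. The let-7 match also occurred once each in Igf1, Igf2r and Igfbp5, and the miR-206 match once each in Igf2 and Igf1r. A match is a description of the letters, and the microRNAs were not measured here.

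Levels within the family spanned more than the differences between groups. Igfbp7 and Igfbp5 were the highest members in every group, at means of 144 and 139 FPKM in old P311-/-, 169 and 159 FPKM in old wild type and 152 and 142 FPKM in young wild type, and their ranges overlapped in each group. In young wild type the order went on with Igfbp6 (126 FPKM), Igfbp4 (95.8), Igf2r (17.8), Igf1 (16.4), Igfbp3 (11.99), Igf2 (3.06), Igf1r (1.55) and Igf2bp2 (1.49), all as mean FPKM. Neighbours whose ranges overlapped there were Igfbp5 and Igfbp6, Igf2r and Igf1, and Igf1r and Igf2bp2. In old wild type the order was the same. In old P311-/- muscle Igfbp4 (81.3 FPKM) and Igfbp3 (14.2 FPKM) each stood a place higher, above Igfbp6 (70.1 FPKM) and Igf1 (10.6 FPKM), with overlapping ranges in both cases.

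**Figure D1:**
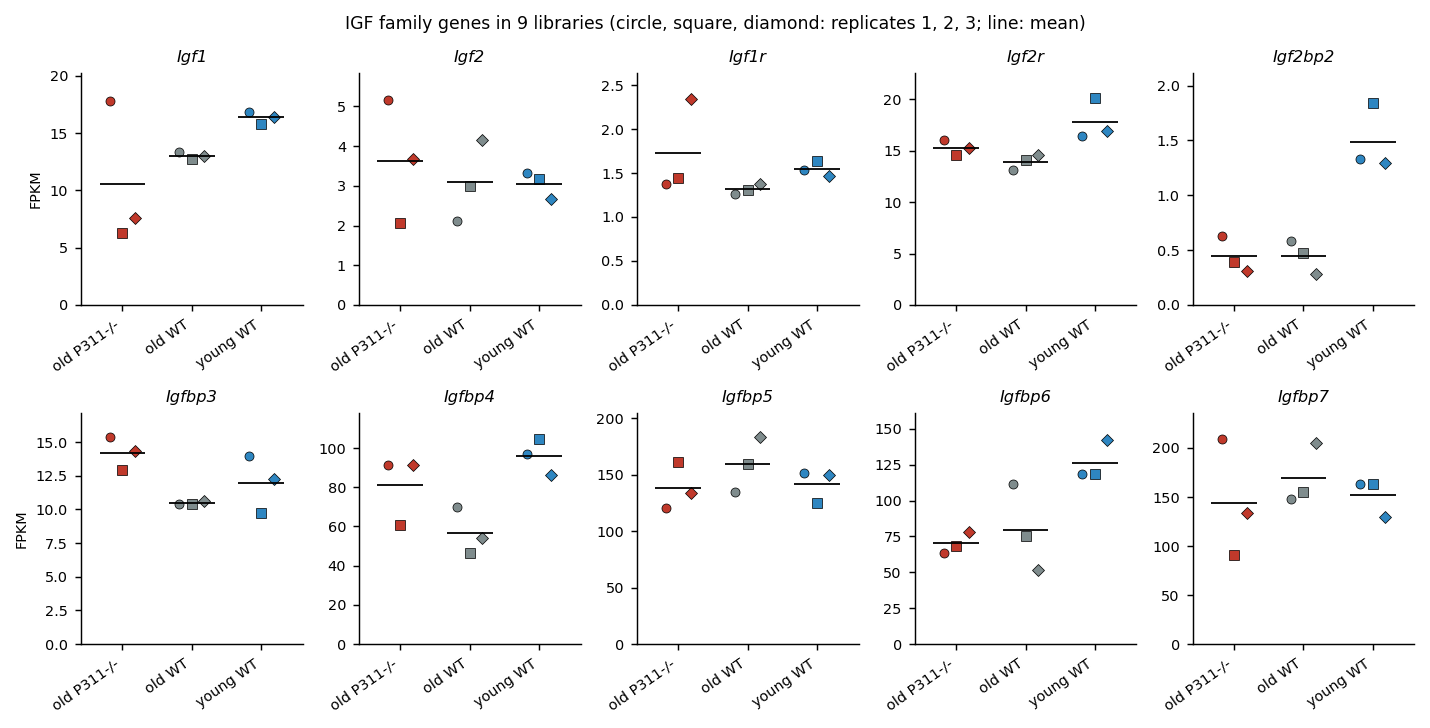
FPKM (vertical axes, from 0) of the 10 genes in the 3 libraries of each group, with symbols for replicates 1, 2 and 3 and a line for the mean. Igf2bp2 lies at 1.29 FPKM or above in young wild type and at 0.625 FPKM or below in both old groups, and Igf1 is spread from 6.30 to 17.8 FPKM in old P311-/-.

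Igf1 (ENSMUSG00000020053, chromosome 10, 87858265 to 87937042, plus strand; positions are on GRCm38) was the ligand with the higher level. It stood at 17.8, 6.30 and 7.62 FPKM in old P311-/- replicates 1, 2 and 3, against 13.3, 12.8 and 13.0 FPKM in old wild type and 16.8, 15.8 and 16.4 FPKM in young wild type. Replicates 2 and 3 of old P311-/- were below every wild-type library, and replicate 1 was above every one. The coefficient of variation was 59.5% in old P311-/-, 2.22% in old wild type and 3.17% in young wild type. The log2 fold change of old P311-/- against old wild type was -0.45 (SE 0.31, 95% interval -1.15 to 0.24, limma adjusted p = 0.477). Set against young wild type, old P311-/- had -0.78 (interval -1.47 to -0.08, adjusted p = 0.196). Old P311-/- replicate 1 was the highest library for Igf1, so leaving it out lowers the group mean. With replicate 2 or 3 left out instead, no member was called against old wild type. Without replicate 1, Igf1 was lower than in old wild type by limma (log2 fold change -0.90, SE 0.11, adjusted p = 0.00442). It was the single member called in that comparison, in which 6.2% of all genes were called lower and 6.97% higher. In the same fit it was also lower than in young wild type (-1.23, adjusted p = 0.00162), where 19.6% of genes were called and 9.22% were lower. Old wild type was below young wild type without overlap, with a log2 fold change of -0.33 (interval -1.02 to 0.37, limma adjusted p = 0.534). The spread behind that interval is shared by all 9 libraries, old P311-/- among them. Without old P311-/- replicate 1 the same difference had an interval of -0.55 to -0.10 and did not pass (limma adjusted p = 0.0648).

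Markers of several cell types moved in the same libraries as Igf1. All 12 macrophage markers were present, and their summed level was 1674, 722 and 991 FPKM in old P311-/- replicates 1, 2 and 3, against 1256 to 1835 FPKM in old wild type and 1540 to 2374 FPKM in young wild type. Lyz2 was the largest term of these sums, at 1042, 427 and 562 FPKM in old P311-/-. Replicates 2 and 3 of old P311-/- had the lowest sums of the 9 libraries, and 11 of the 12 markers had a log2 fold change below 0 against old wild type, with none called. The exception was Cd163, which was lowest in replicate 1 of old P311-/- (5.64, 8.02 and 8.43 FPKM). The markers of fibro-adipogenic progenitors summed to 1636, 1202 and 1291 FPKM in old P311-/-. They summed to 1361 to 1836 FPKM in old wild type and 1997 to 2052 FPKM in young wild type. Against old wild type 8 of the 12 were below 0 in old P311-/-, with none called. For old against young wild type 10 of 12 were below 0 and 3 of 12 were called lower, beside 2.01% of all tested genes. Dcn and Lum went the other way, Lum without overlap (149 to 177 FPKM in old and 110 to 128 FPKM in young wild type). Col3a1 alone gave 607 to 709 FPKM of the young sums. Col1a1 and Col3a1 (492, 218 and 259 FPKM in old P311-/-) were highest in replicate 1 of that group, and Gsn (221, 388 and 380 FPKM) and Pi16 were lowest there. The 10 lymphocyte markers summed to 22.9, 5.55 and 7.63 FPKM in old P311-/-, the highest and the 2 lowest sums of all libraries, against 11.3 to 15.3 FPKM in old wild type and 8.70 to 14.3 FPKM in young wild type. Of these, Cd79a and Ms4a1 were at 0 in some libraries. Adipocyte markers summed to 243, 88.1 and 106 FPKM in old P311-/-, against 98.2 to 138 FPKM in old wild type and 92.2 to 162 FPKM in young wild type, again with replicate 1 highest and replicate 2 lowest. Erythroid markers summed to 836, 300 and 344 FPKM in old P311-/-, against 146 to 971 FPKM in old wild type and 183 to 370 FPKM in young wild type. Markers of mature muscle fibres went the other way, at 53734, 67739 and 61330 FPKM in old P311-/- replicates 1, 2 and 3. Replicate 1 was also the lowest of its group for tenocyte and Schwann cell markers. The part of any of these cell types in the level of Igf1 was not tested.

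**Figure D2:**
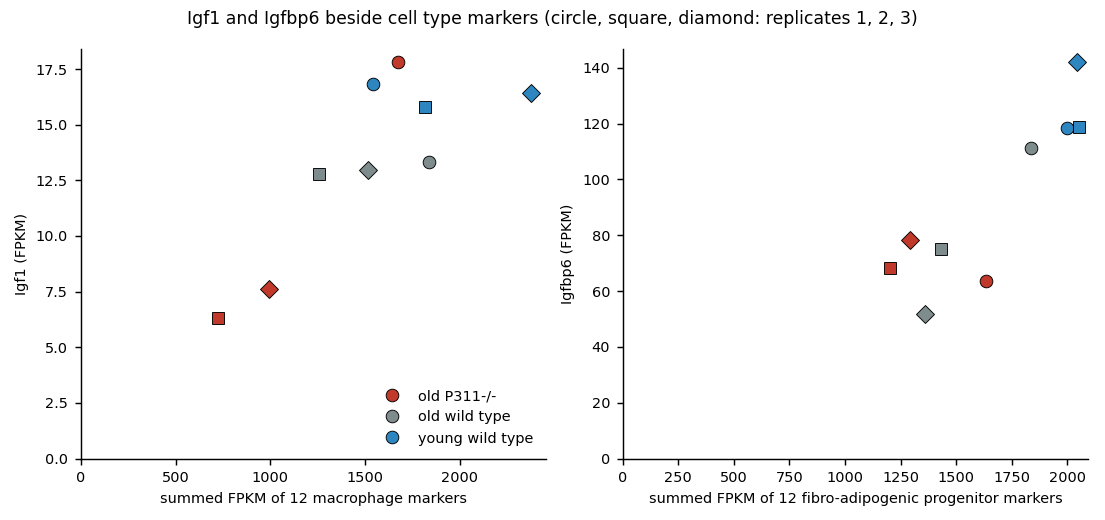
FPKM of Igf1 against the summed FPKM of 12 macrophage markers (left) and of Igfbp6 against that of 12 fibro-adipogenic progenitor markers (right), with a point for each of the 9 libraries. Old P311-/- replicates 2 and 3 lie lowest on both axes at the left, and the 3 young wild-type libraries lie highest on both axes at the right. The pairs were chosen after their values were seen. Lyz2 is the largest term of the sum at the left, and Col3a1 that of the sum at the right in young wild type.

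Igf2 (ENSMUSG00000048583, chromosome 7, 142650766 to 142666816, minus strand) encodes the fetal growth ligand, which myoblasts make as they differentiate. It stood at 5.15, 2.07 and 3.67 FPKM in old P311-/-, against 2.13, 2.99 and 4.17 FPKM in old wild type and 3.31, 3.18 and 2.68 FPKM in young wild type. The 3 groups overlapped. Its log2 fold change in old P311-/- was 0.18 over old wild type (interval -0.54 to 0.90, limma adjusted p = 0.798) and 0.16 over young wild type (interval -0.56 to 0.88, adjusted p = 0.811). For old over young wild type it was -0.03 (interval -0.75 to 0.69, adjusted p = 0.966). These small differences changed sign when single libraries were left out. Its reads numbered 212 to 841 per library. The antisense gene Igf2os overlaps it at 0.0284 to 0.205 FPKM, and whether counting used strand was not stated. The ratio of Igf1 to Igf2 was 2.08 to 3.46 in old P311-/-, against 3.12 to 6.27 in old wild type and, for young wild type, 4.97 to 6.13.

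H19, the non-coding RNA that shares an imprinted region with Igf2, stood at 1116, 822 and 905 FPKM in old P311-/-, against 1192, 1569 and 2361 FPKM in old wild type and 1178, 1213 and 986 FPKM in young wild type. Old wild type lay above old P311-/- without overlap, but the difference did not pass (log2 fold change -0.80, SE 0.24, limma adjusted p = 0.253). It passed without old P311-/- replicate 1 (-0.93, adjusted p = 0.0437) and with library weights (-0.90, adjusted p = 0.0229). Old wild-type replicate 3 was the highest of its group for both H19 and Igf2.

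Igf1r (ENSMUSG00000005533, chromosome 7, 67952827 to 68233668, plus strand) was the low-level receptor. It stood at 1.38, 1.45 and 2.34 FPKM in old P311-/-, against 1.26, 1.31 and 1.38 FPKM in old wild type and 1.54, 1.64 and 1.47 FPKM in young wild type. Old P311-/- replicate 3 was the highest of all libraries, and the other 2 lay just above old wild type. Old P311-/- did not overlap with old wild type, and old wild type did not overlap with young wild type. None of the differences passed: the log2 fold change was 0.33 over old wild type (interval -0.14 to 0.80, limma adjusted p = 0.445), 0.11 over young wild type (adjusted p = 0.801) and -0.22 for old against young wild type (adjusted p = 0.529).

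Igf2r (ENSMUSG00000023830, chromosome 17, 12682406 to 12769664, minus strand) stood at 16.0, 14.6 and 15.2 FPKM in old P311-/-, against 13.2, 14.1 and 14.6 FPKM in old wild type and 16.4, 20.2 and 16.9 FPKM in young wild type. Old wild type was the lowest group, old P311-/- lay between, and no pair of groups overlapped. The log2 fold change was -0.35 for old against young wild type (SE 0.12, interval -0.61 to -0.09, limma adjusted p = 0.0983). It was 0.13 for old P311-/- against old wild type (interval -0.13 to 0.39, adjusted p = 0.577) and -0.22 against young wild type (adjusted p = 0.307). Airn, the antisense RNA that silences Igf2r on the paternal chromosome in mouse embryos, overlaps it at 2.82 to 5.15 FPKM. Igf2r was 10.5 to 10.8 times as high as Igf1r in old wild type and 10.7 to 12.3 times in young wild type, per length. The ratio was 6.51 to 11.6 in old P311-/-, with the lowest value in replicate 3.

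Igfbp3 (ENSMUSG00000020427, chromosome 11, 7206086 to 7213923, minus strand) encodes the main carrier of IGF in blood, with the acid-labile subunit Igfals. It stood at 15.3, 12.9 and 14.3 FPKM in old P311-/-, against 10.4, 10.4 and 10.6 FPKM in old wild type and 14.0, 9.75 and 12.2 FPKM in young wild type. Each old P311-/- library was above each old wild-type library. The old P311-/- libraries averaged 136% of that level, a log2 fold change of 0.43 (SE 0.14, interval 0.12 to 0.75), which did not pass (limma adjusted p = 0.258). Against young wild type the groups overlapped (0.25, adjusted p = 0.322).

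Igfbp4 (ENSMUSG00000017493, chromosome 11, 99041244 to 99054392, plus strand) encodes a binding protein that inhibits IGF until the protease Pappa cuts it. It stood at 91.5, 60.9 and 91.4 FPKM in old P311-/-, against 70.0, 46.6 and 54.2 FPKM in old wild type and 96.8, 104 and 86.2 FPKM in young wild type. The 3 old wild-type libraries were below all young ones, and 2 of the 3 old P311-/- libraries lay within the young range. Old against young wild type had a log2 fold change of -0.77 (SE 0.20, interval -1.22 to -0.32, limma adjusted p = 0.0563), just outside the threshold. It passed with the stricter filter, in a fit of the 6 libraries, with voom and with library weights (adjusted p = 0.0189 to 0.04998). It did not pass with a pseudocount of 1, without a filter, with either other scaling, with the replicate block or with the length trend removed (adjusted p = 0.0542 to 0.121). Old P311-/- against old wild type had 0.51 (SE 0.20, interval 0.06 to 0.96, adjusted p = 0.281), and against young wild type -0.26 (adjusted p = 0.474).

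Igfbp5 (ENSMUSG00000026185, chromosome 1, 72857932 to 72874884, minus strand), the most conserved of the binding proteins and one that muscle cells make as they differentiate, stood at 121, 161 and 134 FPKM in old P311-/-. It stood at 135, 159 and 183 FPKM in old wild type and at 151, 125 and 150 FPKM in young wild type. All groups overlapped, and the largest log2 fold change of the 3 comparisons was -0.20, for old P311-/- against old wild type (interval -0.56 to 0.17, adjusted p = 0.559).

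Igfbp6 (ENSMUSG00000023046, chromosome 15, 102144362 to 102149511, plus strand) encodes the binding protein that prefers Igf2. It stood at 63.6, 68.4 and 78.3 FPKM in old P311-/-, against 111, 75.1 and 51.7 FPKM in old wild type and 118, 119 and 142 FPKM in young wild type. Both old groups were below young wild type without overlap. The log2 fold change against young wild type was -0.85 in old P311-/- (SE 0.24, limma adjusted p = 0.120) and -0.74 in old wild type (SE 0.24, adjusted p = 0.0967), and neither passed. Old P311-/- against old wild type had -0.11 (interval -0.66 to 0.43, adjusted p = 0.834). Old wild-type replicate 1, at 111 FPKM, was near the young libraries, and without it old wild type was lower by 1.02 on the log2 scale (adjusted p = 0.0368). The same library had the highest summed level of fibro-adipogenic progenitor markers in its group, and the part of these cells was not tested.

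Igfbp7 (ENSMUSG00000036256, chromosome 5, 77349240 to 77408041, minus strand) encodes a vessel-associated protein of low affinity for IGF. It stood at 209, 91.0 and 133 FPKM in old P311-/-, against 148, 155 and 205 FPKM in old wild type and 163, 163 and 130 FPKM in young wild type. As for Igf1, old P311-/- replicate 1 was high and replicate 2 the lowest library of all. Its log2 fold change against old wild type was -0.30 (interval -0.91 to 0.31, adjusted p = 0.598), and -0.60 without old P311-/- replicate 1 (adjusted p = 0.0827). The 10 endothelial markers summed to 76.8, 63.5 and 63.8 FPKM in old P311-/-, 64.4 to 89.4 FPKM in old wild type and 67.9 to 70.1 FPKM in young wild type. Polr2b overlaps the end of the gene on the other strand at 10.5 to 13.5 FPKM.

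The 5 binding proteins together summed to 500, 394 and 452 FPKM in old P311-/-, against 474, 447 and 505 FPKM in old wild type and 544, 521 and 520 FPKM in young wild type. Both old groups lay below young wild type. Igfbp6 made up 12.7% to 17.3% of the sum in old P311-/-, 10.2% to 23.5% in old wild type and, for young wild type, 21.8% to 27.3%. Igfbp4 made up 15.5% to 20.2% in old P311-/-, 10.4% to 14.8% in old wild type and, for young wild type, 16.6% to 20.1%, so its share in old P311-/- overlapped with young and not with old wild type. Binding protein transcripts were 21.8 to 47.1 times the sum of Igf1 and Igf2 in old P311-/-, 28.4 to 30.7 times in old wild type and 27.0 to 27.4 times in young wild type. The ratio was narrow in both wild-type groups, and its 2 highest values were those of old P311-/- replicates 2 and 3.

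**Figure D3:**
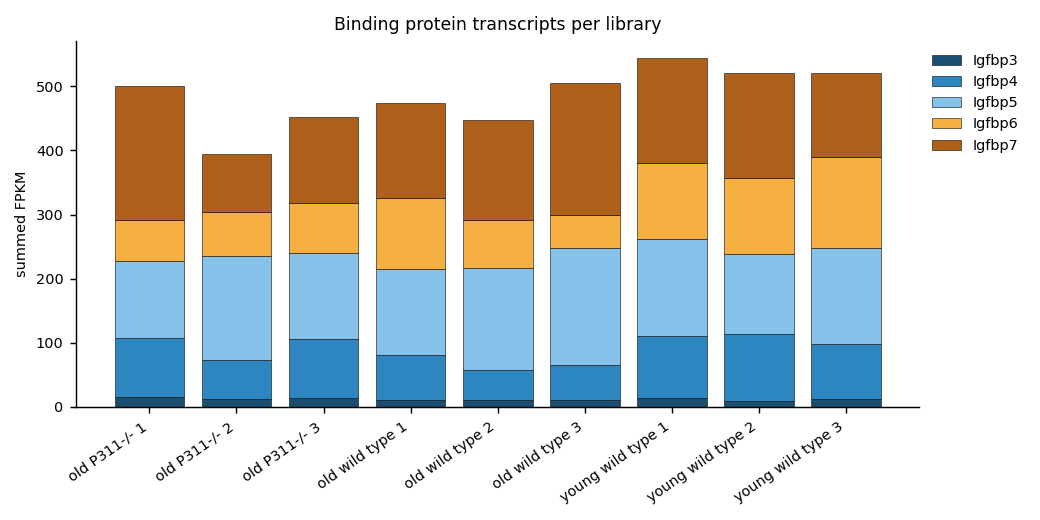
Summed FPKM of the 5 binding proteins (vertical axis, from 0) in each of the 9 libraries, with a colour for each gene. The sum is 394 to 500 FPKM in old P311-/-, 447 to 505 FPKM in old wild type and 520 to 544 FPKM in young wild type, where Igfbp6 takes 21.8% to 27.3% of it.

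Igf2bp2 (ENSMUSG00000033581, chromosome 16, 22059009 to 22163299, minus strand) encodes a protein that binds Igf2 and other messenger RNAs and, in mouse myoblasts, acts downstream of Hmga2 in proliferation. It stood at 0.625, 0.393 and 0.309 FPKM in old P311-/-, against 0.585, 0.473 and 0.280 FPKM in old wild type and 1.33, 1.84 and 1.29 FPKM in young wild type. These came from 132, 52 and 69 reads in old P311-/-, 94, 58 and 50 reads in old wild type and 149, 228 and 189 reads in young wild type. Every old library was below every young library, and the 2 old groups overlapped. The mean was 29.7% of the young level in old P311-/- and 29.97% in old wild type.

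The log2 fold change of Igf2bp2 was -1.57 for old against young wild type (SE 0.33, interval -2.30 to -0.83, limma adjusted p = 0.0357). It was -1.58 for old P311-/- against young wild type (SE 0.33, adjusted p = 0.0686) and -0.01 against old wild type (interval -0.75 to 0.73, adjusted p = 0.991). The direction between old and young wild type was the same in every fit. The call was lost without old wild-type replicate 2 or 3 or young wild-type replicate 1, 2 or 3, where adjusted p was 0.0693 to 0.125, without a filter on low values (adjusted p = 0.0803) and with the replicate block (adjusted p = 0.0691). Without old P311-/- replicate 1, the difference of old P311-/- from young wild type passed (-1.81, adjusted p = 0.00926). The markers of satellite cells and myoblasts summed to 93.2 to 170 FPKM in old P311-/-, 88.3 to 165 FPKM in old wild type and 114 to 207 FPKM in young wild type, with none of 11 called in any comparison (Pax7 and Myod1 among them).

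Side by side, old against young wild type had 8 of 10 members with a log2 fold change below 0, a median of -0.27 against 0.00496 over all tested genes. 1 member, Igf2bp2, was called, as lower. Over all tested genes 5.4% were called, and 2.01% of all tested genes were called lower. The values did not overlap for 6 members (Igf1, Igf1r, Igf2r, Igfbp4, Igfbp6 and Igf2bp2), all lower in old wild type, where 37.1% of all genes did not overlap and 18.1% were lower. Total-count scaling moved the median of all genes by more than 0.1, to -0.124, and left 8 members below 0. The share of mitochondrial reads was 9.47% to 14.1% in old P311-/-, 13.2% to 17.6% in old wild type and, without overlap with the old wild type, 8.79% to 10.7% in young wild type. Its part in these differences was not tested.

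Old P311-/- against old wild type had 5 members above and 5 below 0, a median of 0.06 against -0.00386 over all genes. No member was called by limma, where 0.0703% of genes were and 0.0562% were lower, and 2 members, Igfbp3 and Igfbp4, had an unadjusted p under 0.05, where 16.1% of genes had. With voom the count was also 0. The values did not overlap for 3 members (Igf1r, Igf2r and Igfbp3), all higher in old P311-/-, where 18% of all genes did not overlap with 8.64% higher and 9.39% lower. Without old P311-/- replicate 1 the single member called was Igf1, where 13.2% of genes were, and the other members had an adjusted p of 0.0827 to 0.924.

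Old P311-/- against young wild type had 7 members below 0, a median of -0.18 against 0.0141 over all genes. No member was called, where 0.4% of genes were, and 3 had an unadjusted p under 0.05 (Igf1, Igfbp6 and Igf2bp2), where 21.4% of genes had; with voom 1 was called. Without old P311-/- replicate 1, Igf1 and Igf2bp2 were called, and the other members had an adjusted p of 0.0759 to 0.838. The values did not overlap for 3 members (Igf2r, Igfbp6 and Igf2bp2), all lower in old P311-/-, where 23.5% of genes did not overlap and 12% were lower. The comparisons share libraries, so their values are set side by side and not tested against each other.

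**Figure D4:**
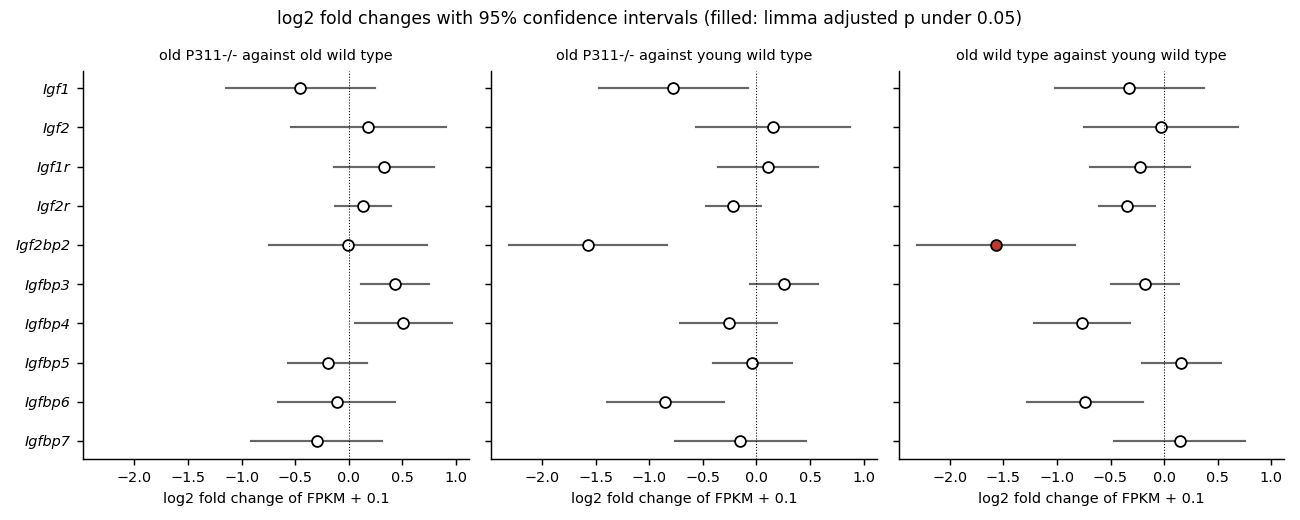
log2 fold changes of FPKM plus 0.1 (horizontal axes) of the 10 genes in the 3 comparisons, with 95% confidence intervals of the limma fit and filled points for an adjusted p under 0.05. The single filled point is Igf2bp2 at -1.57 in old against young wild type, and near 0 the signs of Igf2, Igfbp5, Igfbp6, Igfbp7, Igf1r and Igf2bp2 flip in some comparisons under other settings.

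Other binding proteins and the insulins were low or absent, unlike H19 and Insr. Igfbp1, Igf2bp1, Ins1 and Ins2 were listed at 0 in all 9 libraries. Igfbp2, a binding protein of developing muscle, stood at 1.23, 0.939 and 1.13 FPKM in old P311-/-, against 1.05, 1.21 and 2.22 FPKM in old wild type and 1.36, 0.842 and 0.0274 FPKM in young wild type. Igfals stood at 0.565 to 1.54 FPKM in old P311-/-, 0.257 to 1.201 FPKM in old wild type and 0.907 to 0.992 FPKM in young wild type. The insulin receptor gene Insr stood at 4.80, 7.26 and 7.28 FPKM in old P311-/-, against 5.22, 5.31 and 4.24 FPKM in old wild type and 5.71, 5.92 and 6.34 FPKM in young wild type. Of these 15 other family genes 5 were tested (H19, Insr, Igfbp2, Igfals and Kazald1) and none was called, with 1 at an unadjusted p under 0.05 in old against young wild type, 1 where old P311-/- was set against old wild type and 0 where it was set against young wild type. Without old P311-/- replicate 1, Insr was higher (0.56, adjusted p = 0.0279) and H19 lower than in old wild type. Kazald1, a relative of the binding proteins, had 0.56 for old over young wild type (adjusted p = 0.203).

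Of 87 tested genes in 7 lists around the family (other family genes, binding protein proteases, receptor signalling, its inhibitors, the growth hormone axis, the CCN family and partners of Igf2bp2), 5 were lower and 0 higher in old than in young wild type by limma. That is beside the 2.01% lower and 3.39% higher over all genes. In both comparisons of old P311-/- none was called. At an unadjusted p under 0.05 there were 22 of 87 against old wild type, where 16.1% of all genes were, and 19 of 87 against young wild type, where 21.4% were.

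These counts rest on old P311-/- replicate 1. Without it, an alternative chosen after seeing the data, 19 of the 87 genes were called higher and 3 lower than in old wild type, beside 6.97% higher and 6.2% lower over all genes. Against young wild type 18 were called higher and 7 lower, beside 10.3% and 9.22%. Receptor signalling held 12 of the 19 higher genes, among them Eif4ebp1 (1.06, adjusted p = 0.00607), the mTOR inhibitor Tsc1 (1.05, adjusted p = 0.00787) and the transcription factors Foxo4 (0.80, adjusted p = 0.0113) and Foxo3 (0.78, adjusted p = 0.00824), by limma against old wild type. These 4 had the largest rises of that list in this fit and were named after their values were seen.

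Irs1, the adaptor that carries the signal of the IGF and insulin receptors, stood at 4.77, 2.62 and 3.66 FPKM in old P311-/-, against 3.34, 3.77 and 2.86 FPKM in old wild type and 6.75, 9.15 and 7.54 FPKM in young wild type. Both old groups were below every young library. Its log2 fold change was -1.21 for old against young wild type (SE 0.22, limma adjusted p = 0.0307) and -1.09 in old P311-/- over young wild type (SE 0.22, adjusted p = 0.0595), and without old P311-/- replicate 1 the second of these passed too (adjusted p = 0.00439). Pik3r2, a regulatory subunit of PI3K, stood at 10.1, 9.82 and 9.64 FPKM in old P311-/-, against 8.02, 7.54 and 7.73 FPKM in old wild type and 12.4, 10.7 and 10.8 FPKM in young wild type. The groups did not overlap, and old P311-/- lay between the others. Old against young wild type had -0.53 (SE 0.10, adjusted p = 0.0331), and old P311-/- against old wild type 0.34 (SE 0.10, adjusted p = 0.253). These were the calls among 39 signalling genes, of which 24 had a log2 fold change below 0 (median -0.06).

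Lrp1, a clearance receptor that binds Igfbp3 among many ligands, averaged 13.7 ± 2.76 FPKM in old P311-/-, 10.5 ± 1.51 FPKM in old wild type and 21.4 ± 2.93 FPKM in young wild type (SD, n = 3 each). It was lower in old than in young wild type by 1.02 on the log2 scale (log2 fold change -1.02, limma adjusted p = 0.0307), as the single call among 10 genes of the protease list. Nov, a matrix protein of the CCN family, averaged 10.3 ± 1.15 FPKM in old P311-/-, 9.82 ± 0.715 FPKM in old wild type and 16.7 ± 2.45 FPKM in young wild type (SD, n = 3 each; old against young wild type -0.76, adjusted p = 0.0308). Ago2, the protein that holds microRNAs on their targets, averaged 5.47 ± 0.671 FPKM in old P311-/-, 4.41 ± 0.568 FPKM in old wild type and 6.66 ± 0.459 FPKM in young wild type (SD, n = 3 each; -0.59, adjusted p = 0.0449). All 5 calls were lost without old wild-type replicate 2 or 3 or young wild-type replicate 1, 2 or 3, where adjusted p was 0.0571 to 0.140, without a filter and with the replicate block. The call of Ago2 was also lost without old wild-type replicate 1 (adjusted p = 0.0843), without old P311-/- replicate 3 (0.0515) and with the trend with gene length removed (0.0813).

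Lists with no call are given by the genes of smallest p. Among 17 inhibitors of receptor signalling, 14 were below 0 in old against young wild type (median -0.31), where 49.6% of all genes were. Of the 17, 5 had an unadjusted p under 0.05 by limma, where 26.3% of all genes had. The phosphatase genes Ptpn1 (-0.54, adjusted p = 0.0778) and Inpp5d (-0.72, adjusted p = 0.0939) had the smallest p. Ddit4, an inhibitor of mTOR, stood at 7.03, 14.7 and 15.4 FPKM in old P311-/-, against 4.36, 3.75 and 4.03 FPKM in old wild type (log2 fold change 1.51, adjusted p = 0.175). Eif4ebp1, the translation repressor that mTOR switches off, stood at 15.8, 28.2 and 26.3 FPKM in old P311-/-, against 14.2, 10.9 and 14.2 FPKM in old wild type (0.80, adjusted p = 0.243). For both genes old P311-/- replicates 2 and 3 were the highest libraries, and without replicate 1 both passed (Ddit4 1.87, adjusted p = 0.00265). Ghr, the growth hormone receptor that raises Igf1, had the smallest p of its list of 6 genes in old against young wild type (0.46, adjusted p = 0.159), before Cish, a feedback inhibitor (-2.02, adjusted p = 0.209).

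For the other lists in old P311-/- over old wild type, log2 fold changes were 0.43 for the protease Adamts1 and 0.80 for Stc2, an inhibitor of Pappa. Akt1s1, a subunit of mTORC1, had 0.47. Socs2 and Stat5b of the growth hormone axis had 0.58 and 0.37, and Wisp1 and Wisp2 of the CCN family -1.03 and 0.42. The chromatin protein Hmga1 and the microRNA-processing enzyme Dicer1 had 0.51 and 0.43. Over young wild type, old P311-/- had log2 fold changes of -1.27 for the protease Adam12, 0.85 for Eif4ebp1 and for Ddit4, and -0.92 for Inpp5d. Ghr and Stat5b had 0.58 and 0.63, the CCN genes Cyr61 and Nov 1.08 and -0.69, and Hmga1 and Ago2 0.53 and -0.28. None of these passed, and the smallest limma adjusted p was 0.0676, for Nov. Without old P311-/- replicate 1, Akt1s1, Socs2, Stat5b and Dicer1 passed over old wild type. All of those named over young wild type passed in that fit except Ago2 (adjusted p = 0.285).

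**Figure D5:**
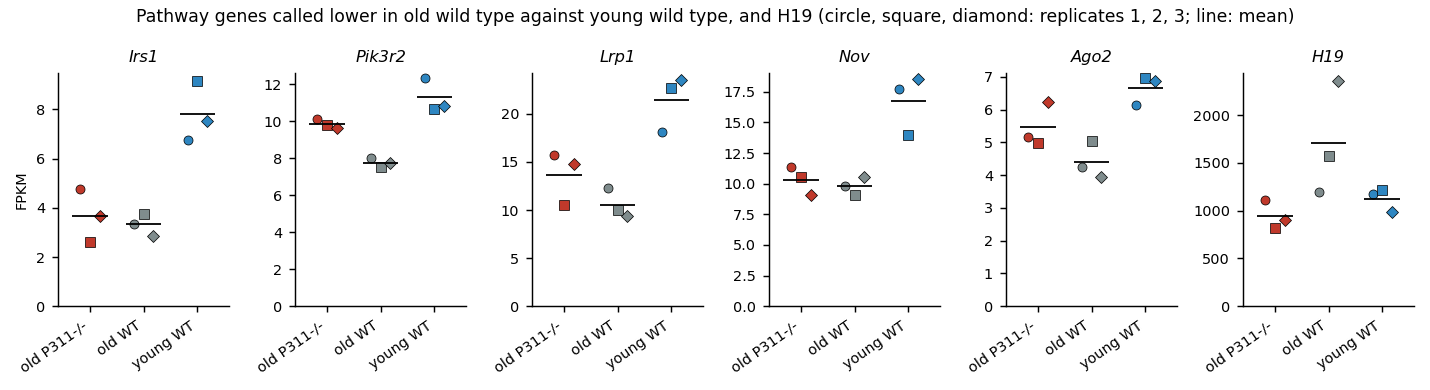
FPKM (vertical axes, from 0) of the 5 pathway genes called lower in old against young wild type, and of H19, in the 3 libraries of each group with a line for the mean. For Irs1 and Nov the old groups lie together below young wild type, and for Pik3r2 old P311-/- lies between old and young wild type at 9.64 to 10.1 FPKM.

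The genes most like each member over the 9 libraries were taken from 10669 genes of at least 1 FPKM by Pearson correlation (r) of log2 FPKM, as a description: the libraries share their groups and depth, and the highest of so many r is high by selection. For Igf1 they were Slc25a45, Tmem123 and Tnfaip8 (r = 0.987, 0.986 and 0.982). For Igf2r they were Myo1c, Midn and Myh9 (r = 0.979, 0.959 and 0.958), and for Igfbp4 Cbx6 and Engase (r = 0.973 and 0.961). Igfbp6 was most like Scara5, Thbd and Hspa5 (r = 0.978, 0.972 and 0.958). Igf2bp2 was most like Vasn, Kcnab2 and Lamc1 (r = 0.981, 0.971 and 0.967). For Igf2 (Phtf1, Smad1, Orai1), Igf1r (Gtf2ird2, Msl2, Spsb3), Igfbp3 (Rnf19a, Crebbp, Lrp3), Igfbp5 (Dpp8, Cog5, Gabarap) and Igfbp7 (Hmgn1, Capn6, Prdx4) the highest r was 0.933, 0.940, 0.905, 0.943 and 0.965.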

How the data were processed

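Poly(A) RNA of 9 libraries was sequenced. The submitters' processing notes name HISAT2 2.2.1, featureCounts 2.1.1, DESeq2 1.42.0 and the build mm39, with no options. The deposited values are FPKM, as read from the values, since the file header names no unit: multiplied by the deposited gene length in bases, 100% of them were whole multiples of 1 step per library within a tolerance of 0.001, taken as 1 read. Gene positions are those of GRCm38, since 98.3% of the 54409 genes also in GENCODE M21 lie at the same place. The strand setting is not given in the sources used here.

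Genes reaching 0.5 FPKM in 3 or more libraries, and 10 recovered reads likewise, were tested with limma 3.58.1 in R 4.3.3 (trend, robust) on log2 of FPKM plus 0.1, which understates changes of low genes. All 9 libraries entered 1 fit without a block, and p-values were adjusted by Benjamini-Hochberg over 14233 genes for each of 3 comparisons, with 0.05 as the threshold. Fold changes are first group over second. The planned count tests with other tools were not run, because the deposited unit is FPKM. The method was tested on simulated data. The members, lists and tests were chosen with earlier results of these data known. Named are the 10 members, genes of 7 pathway lists that were called or had the 2 smallest p, and the 3 genes most like each member; 2 genes that this rule names are not reported here. Markers of 11 cell types were summed. Only the lists of fibro-adipogenic progenitors (3 genes) and mature muscle fibres (1 gene) held calls, all lower in old than in young wild type. The other lists had no gene called in any comparison, and sums for pericytes and smooth muscle are not given. Alternatives were other pseudocounts, filters, scalings, fits, weights, a replicate block, a gene length trend and leaving out each library.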

Additional observations from a re-analysis of the deposited data

How the results depend on the processing

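Of 570 log2 fold changes of members under 19 alternatives, 519 kept their direction and side of the threshold, 23 changed sign, 21 passed in addition and 7 no longer passed. For old against young wild type, members called (1 in the reported fit) were 0 without a filter and with the replicate block, 2 with the stricter filter, in the fit of 6 libraries and with voom, 4 with library weights, and 0 to 3 when 1 library was left out. All genes called (768, 62.8% of them higher) were 5 without a filter, 346 with total-count scaling (27.7% higher), 1653 with 6 libraries, 2290 with library weights, 419 with the length trend removed and 0 to 1755 with 1 library left out. With the replicate block 0 passed in limma (3386 at an unadjusted p under 0.05, against 3748 without it). For old P311-/- against old wild type, members called (0) were 3 with library weights (Igf1, Igfbp3 and Igfbp4) and 0 to 1 with 1 library left out, and all genes called (10) were 4 with the replicate block, 6 with 6 libraries, 2720 with library weights, which gave old P311-/- replicates 1, 2 and 3 weights of 0.27, 0.687 and 2.54, and 4 to 1875 with 1 library left out. For old P311-/- against young wild type, members called (0) were 1 with a pseudocount of 1 and with voom, 3 with library weights and 0 to 2 with 1 library left out. All genes called (57, 38.6% higher) were 87 with a pseudocount of 1, 23 without a filter, 104 with the stricter filter, 34 with total-count scaling, 5 with the replicate block (60% higher), 12 with 6 libraries (50% higher), 139 with voom, 3173 with library weights (52% higher) and 4 to 2785 with 1 library left out. The block changed the call of no other member than Igf2bp2. Same-numbered libraries did not deviate together (r over 0.1 in 1 of 9 pairs), so the numbers are not taken to pair the libraries.

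Signs that changed were of differences near 0. In old against young wild type these were Igf2 (0.018 with library weights, 0.030 with the length trend removed, -0.26 to 0.21 with 1 library left out) and Igfbp7 (-0.055 with the length trend removed). In old P311-/- against old wild type they were Igf2bp2 (0.023 with voom, -0.25 to 0.18 with 1 left out), Igfbp6 (0.034 with library weights, 0.031 with the length trend removed, -0.39 to 0.17 with 1 left out) and Igf2 (-0.11 to 0.53). In old P311-/- against young wild type they were Igf1r (-0.030 with total-count scaling, -0.12 to 0.24 with 1 left out), Igf2 (-0.14 to 0.501), Igfbp5 (-0.15 to 0.057) and Igfbp7 (-0.46 to 0.14). The causes were not tested. The planned quasi-likelihood and negative binomial count tests were not run. Igf2bp2 rests on 50 to 228 reads per library, the fewest of the members.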
